A study of Homo sapiens with 18 samples.

Results

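The early response to hepatocyte growth factor (HGF) was measured in BxPC-3, an established line of human pancreatic adenocarcinoma, by RNA sequencing 1 h after HGF or vehicle. The 3 libraries of cells given HGF at 80 ng/ml were set against the 3 libraries of cells given phosphate-buffered saline, 6 of the 18 libraries in the series. Of 58395 genes in the count table, 16794 passed the low-count filter and were tested. The other libraries came from cells given macrophage-stimulating protein (MSP, 100 ng/ml) for 1 h or 4 h and from the HGF and vehicle groups at 4 h. All groups were grown in medium with serum, and the labels mention no serum withdrawal. The labels call the libraries triplicates of 1 cell line without naming separate cultures, so the p-values cover only the spread seen here, which may be technical.

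HGF is a secreted growth factor that binds MET, a receptor tyrosine kinase of epithelial cells. Activated MET signals through the RAS and ERK pathway, the PI3K and AKT pathway and STAT3, and in culture it drives epithelial cells to scatter, migrate and grow. Within the first hour of such signalling, immediate-early genes are transcribed without new protein synthesis. Many of them encode transcription factors, and others encode inhibitors that act back on the same pathways.

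Total counts were 31896512, 34158388 and 46810947 in the HGF libraries and 37450709, 38831335 and 39542475 in the vehicle libraries. Ductal epithelial markers summed to 6309 to 6630 CPM (counts relative to library size after scaling by trimmed mean of M values, TMM) with HGF and 5168 to 5436 CPM with vehicle. Of the 8 ductal markers tested 6 were called higher with HGF and 1 lower, or 3 and 2 with library totals. Acinar, endocrine, fibroblast, and leukocyte or endothelial markers summed to at most 22.3 CPM a list in any of the 6 libraries, and no tested member of these lists passed the threshold. SMAD4 and CDKN2A, deleted in this line, had 0 counts in all 6 libraries. MET was at 852 ± 10.1 CPM with HGF and 817 ± 22.2 CPM with vehicle (log2 fold change 0.06 ± 0.04 SE, adjusted p = 0.345), so its transcript did not pass the test. The HGF transcript itself had 0, 0 and 0 counts with HGF and 1, 0 and 0 counts with vehicle. The limit that a count of 0 allows is 3 counts, 0.0641 to 0.0941 CPM of library totals in these 6 libraries, for counting error only.

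HGF raised 2317 genes (13.8% of those tested) and lowered 1202 (7.16%) at an adjusted p of 0.05. Counts of list members with TMM factors are to be read beside these shares. Those with library totals are to be read beside 1523 higher and 3590 lower of all 16794 genes. At least 2-fold changes were fewer, with 357 genes higher (2.13%) and 185 lower (1.1%). The split depended on scaling: with library totals instead of TMM 1523 genes were higher and 3590 lower, and the median of all genes moved to -0.11 on the log2 scale. Higher genes made up 65.8% of all calls with TMM factors and 29.8% with library totals. Rises and falls of less than about that shift therefore depended on the scaling, and the ones below are given relative to it. In these bulk samples a change in a few cells cannot be told apart from a smaller change in all of them.

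**Figure D1:**
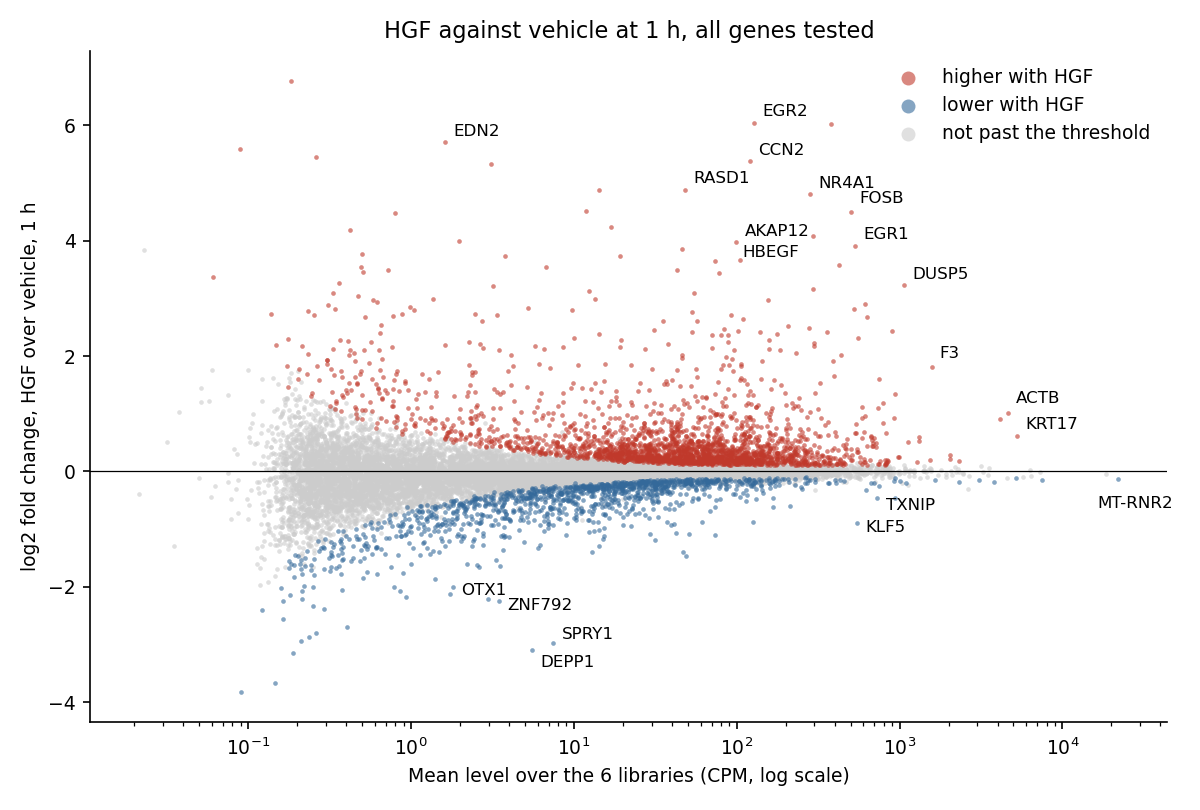
Log2 fold change (HGF over vehicle, 1 h, vertical axis) against the mean level over the 6 libraries (CPM, log scale) for the 16794 genes tested. Red points are the 2317 higher genes, blue points the 1202 lower ones and grey points the rest, with rises reaching above 6 and the abundant genes ACTB and KRT17 among those raised.

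The 12 largest rises, and likewise the falls, were taken among named genes with a mean of at least 1 CPM and no overlap between the groups. Those that rose encode transcription factors, secreted proteins and signalling proteins. EGR2, an immediate-early zinc finger factor, had 239, 262 and 251 CPM in the HGF libraries, against 3.6, 4.07 and 3.67 CPM in the vehicle libraries. FOSB, an AP-1 subunit, had 970.2, 972 and 954 CPM in the HGF libraries, against 38.5, 43.8 and 45.2 CPM in the vehicle libraries. NR4A1, an orphan nuclear receptor, had 603, 523 and 518 CPM in the HGF libraries, against 17.2, 20.4 and 20.9 CPM in the vehicle libraries. For each of these genes the HGF libraries stood far above the vehicle libraries and the groups did not overlap. Their log2 fold changes were 6.05 ± 0.08, 4.50 ± 0.06 and 4.81 ± 0.08 (SE), and each had an edgeR adjusted p of at most 1.99e-23.

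CCN2, a secreted matricellular protein, had 234, 227 and 246 CPM in the HGF libraries, against 4.78, 6.14 and 5.95 CPM in the vehicle libraries. HBEGF, a ligand of the EGF receptor, had 543, 578 and 541 CPM in the HGF libraries, against 27.7, 38.1 and 32.3 CPM in the vehicle libraries. AKAP12, a scaffold that anchors protein kinase A, had 197, 179 and 184 CPM in the HGF libraries, against 11.4, 12.1 and 11.9 CPM in the vehicle libraries. Again every HGF library was above every vehicle library, with log2 fold changes of 5.38 ± 0.10, 4.08 ± 0.08 and 3.98 ± 0.14. The rest of the 12 largest rises were EGR3, EGR4, NR4A3, the RAS-family gene RASD1, the phosphatase gene DUSP2 and the endothelin gene EDN2. Their log2 fold changes ran from 4.24 for EGR4 to 6.02 for EGR3, and EDN2 at 5.71 rested on 5, 1 and 1 counts in the vehicle libraries. EGR3 and FOSB share bases with a tested gene of the other strand, as do ACTG1, EPHA2 and JUNB among the largest gains and 51.0 of the 181 named genes in all, among them ERRFI1, DUSP6, SPRY4, VEGFA, PLAU and the pair KRT8 and KRT18. Whether counting used strand was not given in the sources used here, and the counts of such genes may include reads of the partner.

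**Figure D2:**
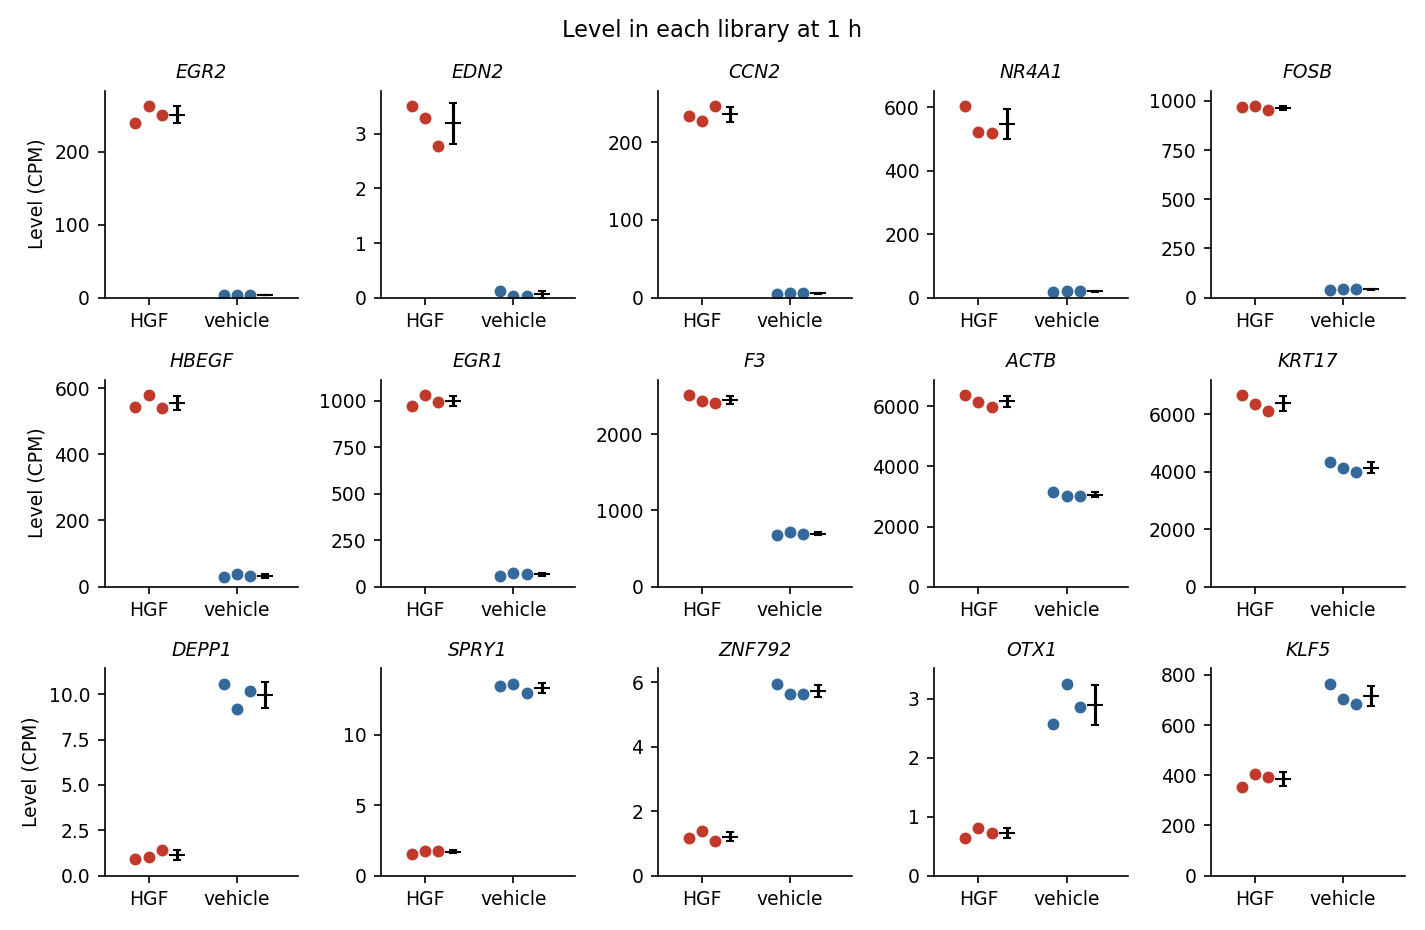
Level in each library (CPM) of 15 genes named for the size of their change, with the 3 HGF libraries in red left of the 3 vehicle libraries in blue. Black marks are the mean ± SD (n = 3), and the groups do not overlap for any of the 15 genes.

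Gains in absolute level picked out a second set, although CPM gains also grow with transcript length. ACTB, encoding beta-actin, had 6362, 6144 and 5989 CPM in the HGF libraries, against 3153, 3013 and 3017 CPM in the vehicle libraries. ACTG1, encoding gamma-actin, had 5558, 5360.2 and 5230.5 CPM in the HGF libraries, against 3044, 2789 and 2806 CPM in the vehicle libraries. KRT17, a basal epithelial keratin, had 6647, 6354 and 6106 CPM in the HGF libraries, against 4334, 4110.0 and 3981 CPM in the vehicle libraries. The actins had a log2 fold change of 1.01 ± 0.04 for ACTB and 0.90 ± 0.04 for ACTG1, and that of KRT17 was 0.62 ± 0.04. F3, which encodes tissue factor, the cell-surface trigger of coagulation, had 2507, 2432 and 2404 CPM in the HGF libraries, against 675, 718 and 689.6 CPM in the vehicle libraries. DUSP5, a nuclear ERK phosphatase, averaged 1916 ± 56.2 CPM with HGF and 204 ± 6.39 CPM with vehicle, and EPHA2, an ephrin receptor, averaged 1526 ± 58.4 CPM with HGF and 282 ± 13.4 CPM with vehicle. CCN1, EGR1, JUNB and FOSB completed the 10 largest gains. Genes that rose by at least 2-fold, chosen by these same values, held 4.86 to 5.08% of all counts in the HGF libraries and 1.53 to 1.58% in the vehicle libraries. The actins and KRT17 have near-identical pseudogenes, which could split their reads.

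Immediate-early transcription factors rose almost without exception. All 6 EGR and NAB genes rose, with a median log2 fold change of 4.08, against 13.8% of all genes and a median of 0.00. EGR1 averaged 998 ± 27.8 CPM with HGF and 66.2 ± 7.41 CPM with vehicle, and the EGR corepressors rose less, NAB2 by 0.92 ± 0.05 and NAB1 by 0.50 ± 0.06. Of 13 AP-1 and related genes 11 rose and none fell (median 2.16), or 11 and 1 with library totals. FOS rose by 3.66 ± 0.08, FOSL1 by 3.58 ± 0.08, JUN by 2.49 ± 0.05 and JUNB by 2.68 ± 0.05, whereas JUND rose by 0.47 ± 0.06. Among 20 other immediate-early genes 19 rose (median 1.89). TRIB1, a pseudokinase, rose by 3.16 ± 0.06, CSRNP1 by 3.44 ± 0.07 and IER3 by 2.52 ± 0.05. SIK1, a salt-inducible kinase, was the member that did not pass the test (0.21 ± 0.45, adjusted p = 0.819). The SE of SIK1 was far wider than those of TRIB1, CSRNP1 and IER3, so its value does not settle whether it rose.

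Other transcription factor families were mixed. Of 14 KLF genes 10 rose and 1 fell (median 0.61). KLF10 averaged 606 ± 21 CPM with HGF and 113 ± 5.16 CPM with vehicle and KLF2 averaged 9.22 ± 0.3997 CPM with HGF and 1.29 ± 0.163 CPM with vehicle. KLF5, a factor of epithelial proliferation, went the other way with 352, 405 and 394 CPM in the HGF libraries, against 762, 704 and 683 CPM in the vehicle libraries. The KLF5 groups did not overlap (log2 fold change -0.90 ± 0.07, adjusted p = 2.08e-09). Of 18 ETS genes 8 rose and 2 fell (median 0.05), or 7 and 6 with library totals. ETV3, a repressor of the family, rose by 1.42 ± 0.04, ELF3 by 1.01 ± 0.07 and ETS2 by 0.86 ± 0.04, while ELF2 fell by 0.39. In the MYC network 5 of 11 rose and 1 fell. MYC rose by 0.99 ± 0.05, and 2 members known as antagonists of MYC also rose, MXD1 by 1.61 ± 0.06 and MNT by 1.11 ± 0.05.

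**Figure D3:**
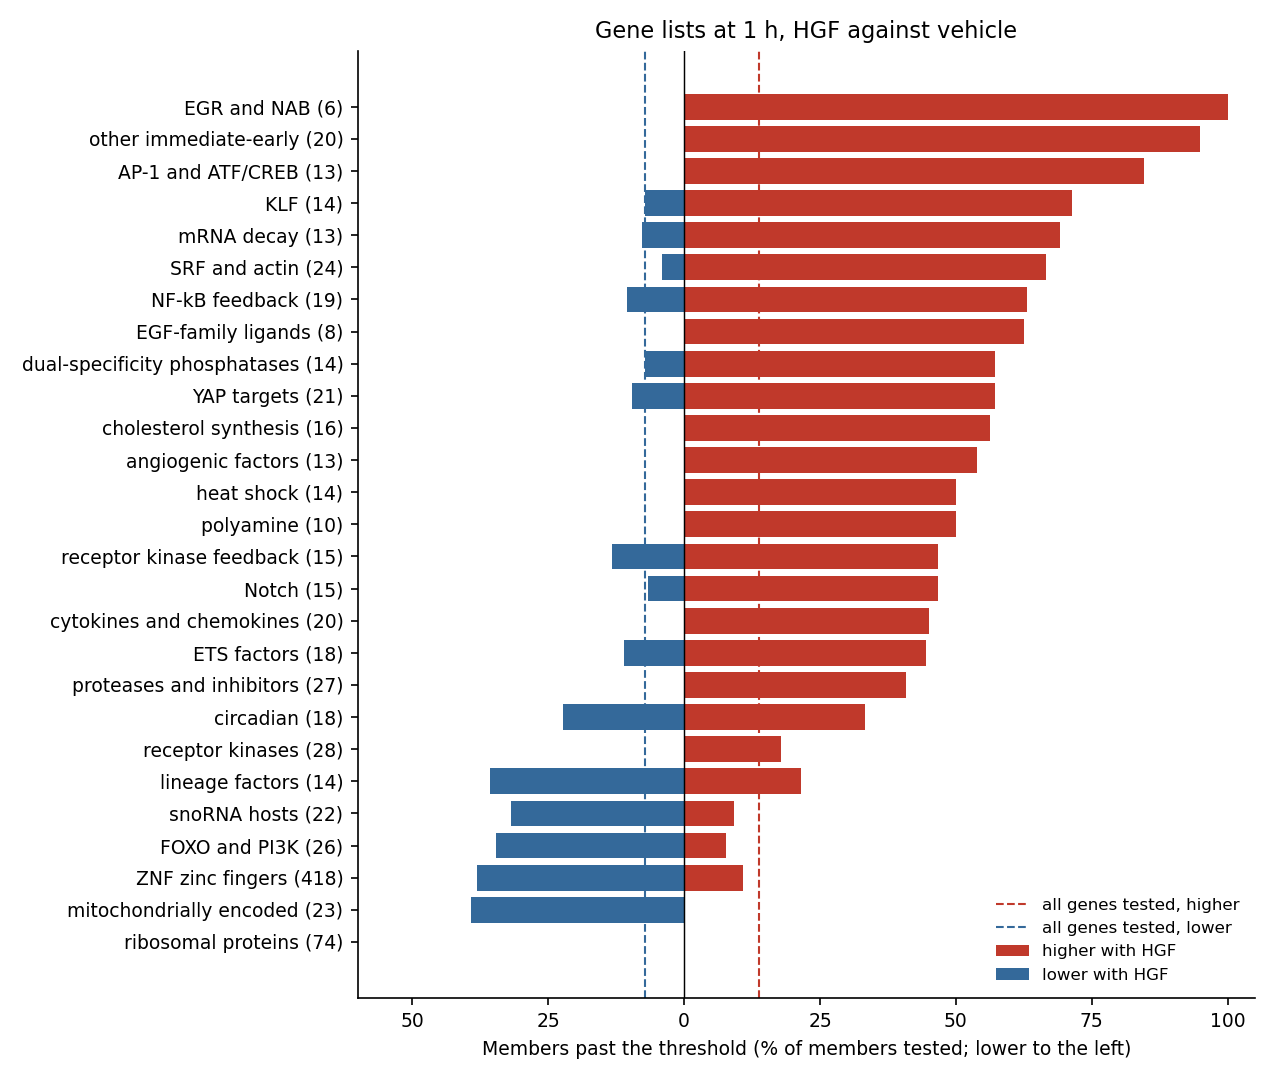
Share of tested members past an adjusted p of 0.05 (%, number tested in parentheses) in 27 gene lists, higher with HGF in red to the right and lower in blue to the left. Dashed lines mark the shares over all genes tested, 13.8% higher and 7.16% lower. EGR and NAB genes stand at 100% higher, and ZNF zinc finger and mitochondrially encoded genes stand furthest to the left.

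The upstream sequences of the genes named for the size of their change were searched for letters of known factor binding motifs. RefSeq promoter sequences (GRCh38.p14) were at hand for 26 of the 33 genes named for the size of their fold change or CPM gain. The 250 bases before the start were searched on both strands for the CArG box of serum response factor, the CRE (TGACGTCA), the AP-1 site (TGANTCA), the EGR site (GCGNGGGCG) and the forkhead site (TGTTTAC). The TATA box (TATAAA) was searched on the gene's strand. EGR1, ACTG1 and AKAP12 held a CArG box, EGR1 with 2, among 16 raised genes with a sequence, and none of 10 lowered genes did. At least 1 of the 6 motifs was found in 9 of the 16 raised and 5 of the 10 lowered genes, and an EGR site in 4 raised and 4 lowered genes. JUNB, raised, and DEPP1, lowered, each held a forkhead site and a TATA box. Of the 11477 tested genes with a sequence, 1.01% held a CArG box, 2.88% a CRE, 4.51% an AP-1 site, 13.4% an EGR site, 2.15% a forkhead site and 3.99% a TATA box. Among all 27305 RefSeq promoters searched, 1.14% held a CArG box, 1.77% a CRE, 6.60% an AP-1 site, 8.25% an EGR site, 2.98% a forkhead site and 7.17% a TATA box. The 3 CArG-box promoters, the raised gene EPHA2 with a CRE and the most lowered named gene, DEPP1, are shown 5′ to 3′ on the gene's strand, with any motif found in capitals. In EGR1 the first capitals are an EGR site and the next 2 runs CArG boxes, and in ACTG1 the middle run is the CArG box between EGR sites.
EGR1, chr5:138465229-138465478, plus strand: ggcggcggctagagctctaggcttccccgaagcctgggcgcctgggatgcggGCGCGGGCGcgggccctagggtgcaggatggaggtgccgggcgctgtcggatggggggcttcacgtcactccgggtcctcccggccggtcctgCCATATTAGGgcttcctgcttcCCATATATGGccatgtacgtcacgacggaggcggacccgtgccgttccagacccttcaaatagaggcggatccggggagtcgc
ACTG1, chr17:81512800-81513049, minus strand: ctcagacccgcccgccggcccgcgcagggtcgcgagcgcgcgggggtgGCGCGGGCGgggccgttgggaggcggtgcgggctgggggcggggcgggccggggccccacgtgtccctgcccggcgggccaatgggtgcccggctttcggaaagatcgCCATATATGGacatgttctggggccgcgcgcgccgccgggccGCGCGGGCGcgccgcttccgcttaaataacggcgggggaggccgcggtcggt
AKAP12, chr6:151239717-151239966, plus strand: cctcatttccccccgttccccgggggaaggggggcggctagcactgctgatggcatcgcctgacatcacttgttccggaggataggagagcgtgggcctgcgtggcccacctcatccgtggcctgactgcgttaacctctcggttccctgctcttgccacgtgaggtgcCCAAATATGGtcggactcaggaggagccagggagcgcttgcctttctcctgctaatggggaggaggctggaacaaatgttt
EPHA2, chr1:16156070-16156319, minus strand: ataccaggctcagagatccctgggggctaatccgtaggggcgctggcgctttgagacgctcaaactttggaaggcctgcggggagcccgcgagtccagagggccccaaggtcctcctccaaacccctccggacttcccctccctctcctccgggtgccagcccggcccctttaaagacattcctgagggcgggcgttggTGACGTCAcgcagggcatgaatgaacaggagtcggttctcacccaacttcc
DEPP1, chr10:44978810-44979059, minus strand: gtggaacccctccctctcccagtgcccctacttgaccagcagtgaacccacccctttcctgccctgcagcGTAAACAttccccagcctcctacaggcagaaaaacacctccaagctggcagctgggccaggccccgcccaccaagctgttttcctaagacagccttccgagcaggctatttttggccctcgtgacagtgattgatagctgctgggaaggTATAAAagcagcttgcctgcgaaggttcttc

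A match is a description of the letters, and no binding was measured. EGR2, HBEGF, NR4A1, RASD1 and 3 other raised genes held none of the 6 motifs in the 250 bases searched. These bases lie before the start listed for each gene, and any other starts of a gene were not searched. Whether transcription began at the listed start in these cells was not tested, so a motif at another start could have been missed. Fewer than 80% of the genes past 2-fold had a sequence in the table (212 of 357 risers and 111 of 185 fallers), so a comparison of motif shares over these sets is void. The same limit holds for the named genes (26 of 33) and for all genes tested (11477 of 16794). The motif counts of raised and lowered named genes are therefore a description, and no contrast between them is drawn.

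Several genes for inhibitors of ERK and receptor signalling rose. Of 14 dual-specificity phosphatase genes 8 rose and 1 fell (median 0.77), or 8 and 4 with library totals. DUSP6, which dephosphorylates cytoplasmic ERK, averaged 703 ± 12.4 CPM with HGF and 174 ± 3.62 CPM with vehicle. DUSP1 averaged 86.7 ± 4.81 CPM with HGF and 5.999 ± 1.04 CPM with vehicle. DUSP4, DUSP7 and DUSP8 rose by 1.14, 1.11 and 1.87 on the log2 scale. DUSP10, a phosphatase of the stress kinases JNK and p38, fell, with 9.44 ± 0.958 CPM with HGF and 11.97 ± 0.559 CPM with vehicle (log2 fold change -0.34 ± 0.09).

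Of 15 receptor kinase feedback genes 7 rose and 2 fell. ERRFI1, which inhibits the EGF receptor, averaged 916 ± 29.6 CPM with HGF and 130.3 ± 7.03 CPM with vehicle. The Sprouty genes, which encode inhibitors of receptor signalling to ERK, moved in opposite directions. SPRY4 averaged 92.3 ± 6.1 CPM with HGF and 13.6 ± 1.75 CPM with vehicle and SPRY2 averaged 38.97 ± 1.78 CPM with HGF and 19.6 ± 0.385 CPM with vehicle. SPRY1 instead had 1.56, 1.76 and 1.72 CPM in the HGF libraries, against 13.4, 13.6 and 12.9 CPM in the vehicle libraries. All 3 HGF libraries of SPRY1 were below all vehicle libraries (log2 fold change -2.98 ± 0.10, adjusted p = 5.69e-21).

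Most genes that limit mRNA lifetime rose, 9 of 13 with 1 fall (median 0.54), or 9 and 3 with library totals. ZFP36, which binds AU-rich elements of short-lived mRNAs, averaged 298 ± 10.8 CPM with HGF and 57.03 ± 2.37 CPM with vehicle. ZFP36L1 averaged 1118 ± 34.96 CPM with HGF and 367 ± 4.49 CPM with vehicle, and the antiproliferative gene BTG2 averaged 260.2 ± 8.195 CPM with HGF and 53.9 ± 2.18 CPM with vehicle. ZC3H12A, an endoribonuclease also known as Regnase-1, rose by 1.95 ± 0.06, while BTG1 fell by 0.30 on the log2 scale (SE 0.06). Of 19 NF-kB and feedback genes 12 rose and 2 fell (median 0.25). TNFAIP3, a ubiquitin-editing enzyme that restrains NF-kB, rose by 2.71 ± 0.05 and BCL3 by 2.11 ± 0.07, against 0.17 ± 0.05 for NFKBIA, which encodes the classical inhibitor.

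Secreted ligands formed another raised group. Of 8 EGF-family ligands 5 rose and none fell (median 0.78). EREG averaged 275 ± 8.98 CPM with HGF and 34.9 ± 1.796 CPM with vehicle, AREG averaged 172 ± 11.04 CPM with HGF and 31.98 ± 2.55 CPM with vehicle and TGFA averaged 128 ± 5.01 CPM with HGF and 63.4 ± 0.733 CPM with vehicle. NRG1, a ligand of ERBB3, rose less (0.52 ± 0.05). Of 20 cytokine and chemokine genes 9 rose (median 0.70), or 9 with 1 fall with library totals. The median was 0.34 in a fit of the 6 libraries alone and 0.17 with a minimum count of 50, which left 8 and 7 rises. LIF, a cytokine of the interleukin-6 family, averaged 79.3 ± 3.56 CPM with HGF and 7.02 ± 0.497 CPM with vehicle, and IL1A averaged 141 ± 4.77 CPM with HGF and 25.7 ± 2.48 CPM with vehicle. CXCL8 rose by 1.87 ± 0.11 and IL11 by 3.21 ± 0.19, whereas CXCL1 did not pass the test at -0.16 ± 0.14. Of 13 angiogenic factors 7 rose. VEGFA averaged 926 ± 7.99 CPM with HGF and 186 ± 12.1 CPM with vehicle, PDGFB averaged 52.2 ± 1.08 CPM with HGF and 9.52 ± 1.0 CPM with vehicle and EDN1, encoding endothelin-1, averaged 12.5 ± 0.627 CPM with HGF and 1.07 ± 0.149 CPM with vehicle. VEGFC stood at -0.48 ± 0.41 (adjusted p = 0.49).

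Few receptor genes changed. Of 28 receptor kinases 5 rose and none fell, or 4 and 6 with library totals, close to the share over all genes. EPHA2 was the one receptor kinase called at 2-fold (2.44 ± 0.04), and EPHB3 rose by 0.60 ± 0.05. EGFR stood at -0.02 ± 0.05, ERBB2 at -0.11 ± 0.05, and MST1R, the receptor of MSP, at 0.16 ± 0.06 (adjusted p = 0.0859). MST1R passed when only the 6 libraries were fitted (adjusted p = 0.0271). In the list of HGF and MET pathway genes 3 of 16 rose (18.8%, beside 13.8% of all genes), or 1 with 3 falls with library totals. A single rise was left without HGF replicate 1, without vehicle replicate 2 (with 2 falls) or without vehicle replicate 3. Only the rise of SHC1, an adaptor of receptor kinases, also passed with library totals (0.39 ± 0.04 with TMM factors).

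Actin and cytoskeletal genes included the large gains of ACTB and ACTG1 given above. Of 24 SRF and actin genes 16 rose and 1 fell (median 0.31), or 14 and 3 with library totals. TAGLN, an actin-binding protein of contractile cells, had 40.5, 31.8 and 34.7 CPM in the HGF libraries, against 2.39, 2.68 and 2.91 CPM in the vehicle libraries. ZYX, a focal adhesion protein, averaged 435 ± 28.1 CPM with HGF and 169 ± 1.75 CPM with vehicle, TPM4 averaged 775 ± 17.5 CPM with HGF and 406 ± 7.78 CPM with vehicle and VCL averaged 535 ± 16.9 CPM with HGF and 409.5 ± 5.24 CPM with vehicle. SRF itself rose by 1.11 ± 0.04, while FLNA and MYH9 stood at 0.07 ± 0.05 and 0.01 ± 0.05. TAGLN overlaps PCSK7 on the opposite strand.

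Of 21 YAP target genes 12 rose and 2 fell (median 0.20), or 9 and 5 with library totals. ANKRD1 averaged 145 ± 8.31 CPM with HGF and 30.7 ± 2.16 CPM with vehicle and AMOTL2, which restrains YAP, averaged 277 ± 9.18 CPM with HGF and 98.02 ± 0.294 CPM with vehicle. LATS2, a kinase that inhibits YAP, rose by 0.78 ± 0.05, and LATS1 stood at 0.16 ± 0.06. Among 22 keratin genes, a set chosen after their values were seen, 12 were higher and none lower, beside 13.8% and 7.16% of all genes. The 22 include the pseudogene KRT42P, which was among the 12. The call of KRT19 (0.18 ± 0.04) was lost with library totals. Calls with library totals are not given for every keratin, and KRT7 rose less than KRT19 (0.17 ± 0.04). KRT18 averaged 1014 ± 38.1 CPM with HGF and 635 ± 13.2 CPM with vehicle, KRT8 averaged 1327 ± 53.1 CPM with HGF and 927 ± 19.7 CPM with vehicle and KRT6A averaged 1577 ± 77.9 CPM with HGF and 1046 ± 45.3 CPM with vehicle. KRT5, at a mean of 6303 CPM with vehicle, stood at 0.02 ± 0.05, and KRT13 at 0.03 ± 0.04.

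Of 27 proteases and inhibitors 11 rose and none fell, or 10 and 5 with library totals. PLAU, the urokinase gene, averaged 429.7 ± 32.1 CPM with HGF and 203 ± 9.31 CPM with vehicle, and its receptor PLAUR averaged 74.6 ± 4.47 CPM with HGF and 18.3 ± 0.791 CPM with vehicle. No matrix metalloproteinase passed the test, and MMP1 stood at -0.12 ± 0.06 and MMP14 at 0.08 ± 0.04. Of 18 integrin, laminin and hemidesmosome genes 7 rose and 3 fell, or 5 and 5 with library totals, with no rise of 2-fold and a median of 0.06. The laminin chain genes LAMA3 and LAMB3 rose by 0.35 ± 0.05 and 0.30 ± 0.05, while DST fell by 0.24 (SE 0.04) and ITGA2 fell by 0.21 (SE 0.05). The count of junction genes depended on the scaling: 7 of 27 rose and none fell, or 4 and 10 with library totals. PKP2 rose by 0.56 ± 0.05 and CLDN4 by 0.49 ± 0.05. SNAI2, a repressor of CDH1 in epithelial-mesenchymal transition, averaged 284 ± 6.34 CPM with HGF and 111 ± 3.79 CPM with vehicle, whereas VIM stood at 0.14 ± 0.13 and CDH1 at 0.12 ± 0.04.

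Among genes that fell, DEPP1, a target of FOXO factors, had 0.923, 1.05 and 1.43 CPM in the HGF libraries, against 10.5, 9.19 and 10.2 CPM in the vehicle libraries. ZNF792, a zinc finger gene, had 1.18, 1.38 and 1.09 CPM in the HGF libraries, against 5.94, 5.63 and 5.64 CPM in the vehicle libraries. OTX1, a homeobox factor, had 0.637, 0.807 and 0.717 CPM in the HGF libraries, against 2.57, 3.24 and 2.87 CPM in the vehicle libraries. The groups did not overlap for any of them, with log2 fold changes of -3.09 ± 0.14, -2.25 ± 0.14 and -2.0 ± 0.20. The rest of the 12 largest falls were SPRY1, ZKSCAN4, SPESP1, ZNF555, OSR2, ZNF230, PPP1R3C, ZNF572 and GCC2-AS1, from -2.98 to -1.60. Of the 12, 6 encode proteins with C2H2 zinc fingers named ZNF, ZKSCAN or OSR. DEPP1, SPESP1 and GCC2-AS1 also share bases with a tested gene of the other strand.

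Falls outnumbered rises among FOXO targets and PI3K-regulated genes. Of 26 members 2 rose and 9 fell (median -0.09), or 2 and 12 with library totals, and the median was -0.04 without vehicle replicate 1 and -0.05 without HGF replicate 1. CDKN1B, the cell-cycle inhibitor p27, had 21.8, 26.6 and 28.8 CPM in the HGF libraries, against 69.1, 68.1 and 65.8 CPM in the vehicle libraries. BCL6, a transcriptional repressor, averaged 7.13 ± 0.277 CPM with HGF and 18.9 ± 1.33 CPM with vehicle, and CITED2 averaged 32.7 ± 1.84 CPM with HGF and 68.99 ± 3.699 CPM with vehicle. PIK3IP1, an inhibitor of PI3K, averaged 28.9 ± 0.952 CPM with HGF and 54.1 ± 3.24 CPM with vehicle, and FBXO32, a ubiquitin ligase subunit, averaged 26.1 ± 0.982 CPM with HGF and 48.01 ± 4.45 CPM with vehicle. TXNIP, which binds thioredoxin and limits glucose uptake, averaged 616 ± 3.02 CPM with HGF and 843 ± 76.4 CPM with vehicle (-0.45 ± 0.08). The FOXO genes themselves did not pass the test, with FOXO1 at -0.04 ± 0.05 and FOXO3 at -0.05 ± 0.06. IRS2, also a FOXO target, rose by 0.69 ± 0.06.

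Cell-cycle and survival genes split within families. CDKN1A, the inhibitor p21, averaged 489 ± 37.9 CPM with HGF and 104 ± 3.48 CPM with vehicle, opposite to CDKN1B. CCND1 rose by 0.12 ± 0.04, about the size of the scaling shift, and CDK4, CDK6 and E2F1 did not pass the test. Over 19 G1 control genes 7 rose and 1 fell, or 4 and 5 with library totals, and 4 rose without HGF replicate 2 or without vehicle replicate 3. MCL1, a short-lived survival protein, averaged 1342 ± 54.1 CPM with HGF and 532 ± 15.2 CPM with vehicle, and BCL2L1 averaged 309.8 ± 6.45 CPM with HGF and 203 ± 0.759 CPM with vehicle. The proapoptotic genes BMF and BCL2L11 fell, with log2 fold changes of -0.54 ± 0.07 and -0.52 ± 0.10, while BIK and PMAIP1 rose by 0.99 ± 0.11 and 0.57 ± 0.07. Of 15 BCL2-family genes 6 rose and 2 fell.

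Lineage factors changed in both directions, 3 of 14 up and 5 down (median -0.13). OVOL1, an epithelial zinc finger factor, averaged 89.5 ± 3.88 CPM with HGF and 16.8 ± 0.872 CPM with vehicle, and SOX9, a ductal factor, averaged 26.4 ± 1.43 CPM with HGF and 10.1 ± 1.07 CPM with vehicle. FOXA1, a pioneer factor of endodermal epithelia, averaged 19.3 ± 1.21 CPM with HGF and 43.9 ± 3.01 CPM with vehicle. GATA6 and TP73 fell by 0.29 and 0.27 on the log2 scale (SE 0.06 each).

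Falls outnumbered rises among genes named ZNF, most of which encode C2H2 zinc finger proteins. Of 418 tested 159 fell (38.0%) and 45 rose (10.8%), beside 7.16% and 13.8% of all genes, with a median log2 fold change of -0.18. With library totals 213 fell and 33 rose. Chromosome 19, which holds large clusters of these genes, had 75 falls among 189 ZNF genes and 40 among its 913 other genes. On other chromosomes 84 of 229 ZNF genes fell. At vehicle levels of 1 to 20 CPM the share that fell was 44.1% of 263 ZNF genes and 7.79% of 4221 other protein-coding genes. In total, 190 ZNF genes were below every vehicle library in all HGF libraries (45.5%, beside 15.6% of all genes).

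ZNF436 averaged 25.7 ± 2.27 CPM with HGF and 71.3 ± 4.38 CPM with vehicle, ZNF398 averaged 27.5 ± 1.65 CPM with HGF and 57.3 ± 2.29 CPM with vehicle and ZNF217, a transcriptional repressor amplified in some carcinomas, averaged 46.9 ± 5.79 CPM with HGF and 101 ± 1.49 CPM with vehicle. Some members went the other way. ZNF561 averaged 92.9 ± 0.568 CPM with HGF and 44.2 ± 1.81 CPM with vehicle, and ZNF699 averaged 18.5 ± 0.681 CPM with HGF and 6.896 ± 0.468 CPM with vehicle. The summed level of the ZNF genes was 7602 to 7822 CPM with HGF and 7963 to 8207 CPM with vehicle, with every HGF library below every vehicle library. Of 8 ZKSCAN genes 5 fell and 2 rose, and of 37 ZBTB genes 12 fell and 8 rose.

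Several metabolic genes rose. In cholesterol uptake and synthesis 9 of 16 rose and none fell (median 0.26), or 8 with library totals. INSIG1, which restrains the processing of the controlling factors, rose by 0.81 ± 0.05, and SREBF2, which encodes one of those factors, stood at 0.04 ± 0.04. Of 10 polyamine genes 5 rose. ODC1, which makes putrescine, averaged 141 ± 11.3 CPM with HGF and 39.1 ± 2.16 CPM with vehicle, and AZIN1, which protects it from antizyme, averaged 369 ± 8.94 CPM with HGF and 232 ± 8.94 CPM with vehicle. In glycolysis 4 of 14 rose, among them the regulator PFKFB3 (1.08 ± 0.06), HK2 (0.64 ± 0.05) and the transporter SLC2A1 (0.54 ± 0.05). GAPDH and LDHA stood at 0.06 ± 0.04 and -0.05 ± 0.05.

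Targets of other pathways gave mixed counts. ID1, a target of BMP signalling, averaged 489.5 ± 12.6 CPM with HGF and 108 ± 2.43 CPM with vehicle, and SKIL, a SMAD corepressor, averaged 343 ± 19.4 CPM with HGF and 142 ± 6.13 CPM with vehicle. Of 20 TGF-beta and BMP genes 8 rose and 2 fell, or 8 and 5 with library totals, and none fell without HGF replicate 2. Of 15 Notch genes 7 rose and 1 fell, with NRARP, a Notch target that limits the pathway, at 212 ± 5.67 CPM with HGF and 69.8 ± 1.599 CPM with vehicle and HEY1 lowered by 0.68 (SE 0.14). Circadian genes gave 6 rises and 4 falls of 18, or 4 and 6 with library totals, and 2 fell without HGF replicate 1 or without vehicle replicate 1. BHLHE40 rose by 1.66 ± 0.05 and PER2 by 0.99 ± 0.05, while NFIL3 fell by 0.80 (SE 0.07) and the core genes CLOCK and BMAL1 stood at 0.01 ± 0.06 and -0.00 ± 0.07. HAS3 rose by 0.71 ± 0.07 and HAS2 fell by 0.51 (SE 0.05), both hyaluronan synthases, and of 12 hyaluronan and proteoglycan genes 5 rose and 1 fell. Heat shock genes gave 7 rises of 14, or 4 with library totals, led by DNAJB1 (1.15 ± 0.04). Interferon genes gave 1 rise and 2 falls of 13, beside 13.8% and 7.16% of all genes, or 4 falls and no rise with library totals, and the rise was lost without HGF replicate 1 or vehicle replicate 2.

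Of the 10 largest losses in CPM, KLF5 had the largest fold change, followed by TXNIP and SLC38A2, and the other 7 were small in fold. MT-RNR2, the mitochondrial large ribosomal RNA, had 20716, 21139 and 21469.8 CPM in the HGF libraries, against 22758, 22821 and 23419 CPM in the vehicle libraries, a log2 fold change of -0.12 ± 0.03. Of 23 mitochondrially encoded genes 9 fell and none rose, or 17 fell with library totals. Mitochondrially encoded genes took 7.94 ± 0.200% of counts with HGF and 9.18 ± 0.236% with vehicle (two-sided exact permutation p = 0.1, the smallest 3 against 3 libraries allow). The falls of MT-ND4, MT-ATP6 and MT-CYB were lost in at least 1 fit without a library, and 4 genes were called lower without HGF replicate 1 and 5 without HGF replicate 2 or vehicle replicate 2. EEF2 and PABPC1, a translation factor and a poly(A)-binding protein, fell by 0.19 and 0.15 (SE 0.04 each), and SLC38A2, an amino acid transporter, averaged 797 ± 51.2 CPM with HGF and 1090.5 ± 72.5 CPM with vehicle (-0.45 ± 0.08). COL17A1, a hemidesmosome collagen, fell by 0.15 (SE 0.04), a call lost without vehicle replicate 1 (adjusted p = 0.0548). No gene of 74 cytosolic ribosomal proteins passed the test, or 11 fell with library totals, where 3590 of all 16794 genes fell. Of 16 housekeeping genes 3 rose (18.8%) and 1 fell (6.25%), near the shares over all genes, or 2 and 7 with library totals, with GUSB at -0.14 ± 0.06.

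Protein-coding genes that changed by at least 2-fold had a shorter median genomic span. Their genomic span had a median of 12 kb for protein-coding genes that rose and 11.4 kb for those that fell, beside 34.2 kb for all protein-coding genes tested (GENCODE 29). The median maximum exon number of a transcript was 5, 4 and 10 in these sets. Of protein-coding genes under 5 kb, 5.46% rose and 1.44% fell by at least 2-fold. Of those over 300 kb, 0.380% rose and none of 527 fell, and the shares between declined step by step for rises. Without the 2-fold limit 17.4% rose among genes under 5 kb, 20.9% among genes of 5 to 10 kb and 5.69% among genes over 300 kb. The median vehicle level was 12.6 CPM in the shortest class and 11.3 CPM in the longest, and 17.5 to 30.4 CPM in the classes between, so level was not matched over span. AKAP12, at 118.6 kb, was the longest protein-coding gene among the 12 largest rises.

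**Figure D4:**
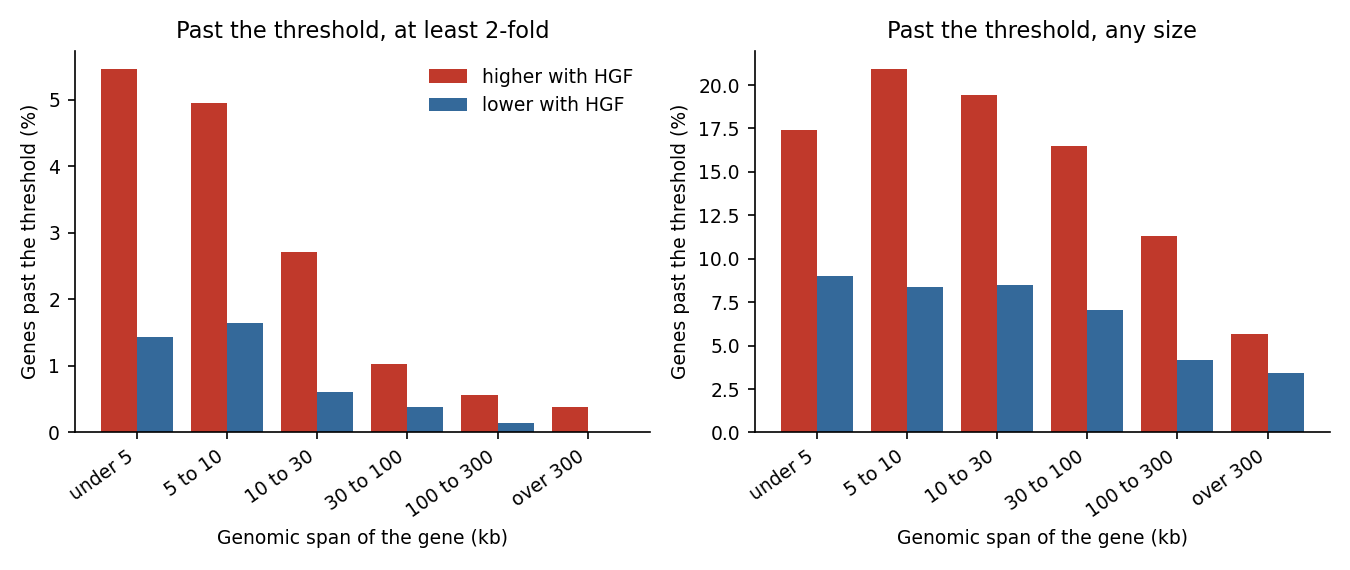
Share of protein-coding genes past the threshold (%) by genomic span (kb), at least 2-fold on the left and of any size on the right, higher with HGF in red and lower in blue. Rises of at least 2-fold run from 5.46% under 5 kb to 0.380% over 300 kb.

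Long noncoding RNAs made up 47.0% of the genes that fell by at least 2-fold (87 of 185) and 16.8% of those that rose (60 of 357), beside 15.1% of all genes tested. Over calls of any size, 204 of 2528 long noncoding RNAs fell (8.07%), beside 7.16% of all genes, and 121 rose (4.79%), beside 13.8%. They made up 11.5% of the falls of less than 2-fold. Genes past 2-fold had low levels, with a median of 0.883 CPM with vehicle for fallers and 3.78 CPM for risers, beside 13.0 CPM for all genes tested. Under 1 CPM with vehicle were 97 of 185 fallers and 132 of 357 risers, beside 3757 of all 16794. At such levels the filter and the 2-fold limit act most strongly. Among microRNA host genes 4 of 34 rose (11.8%, near the 13.8% of all genes) and 8 fell (23.5%, beside 7.16%), or 5 fell with a minimum count of 50. MIR22HG averaged 52.8 ± 2.53 CPM with HGF and 18.5 ± 1.41 CPM with vehicle and MIR222HG averaged 16.6 ± 1.297 CPM with HGF and 4.59 ± 1.84 CPM with vehicle. MIR181A2HG, the host of a miR-181 cluster, averaged 1.71 ± 0.397 CPM with HGF and 4.95 ± 0.875 CPM with vehicle. DUSP5-DT and ERRFI1-DT, transcribed divergently from DUSP5 and ERRFI1, rose by 1.74 ± 0.19 and 1.61 ± 0.24. Of 22 snoRNA host genes 2 rose and 7 fell, or 3 fell without HGF replicate 2, 4 without HGF replicate 3 or vehicle replicate 3, and 12 fell with library totals. SNHG15 rose by 0.68 ± 0.10 and SNHG7 fell by 0.52 (SE 0.08).

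The libraries at 4 h, which are separate from those at 1 h, were compared in the same way. At 4 h 5555 genes were higher (33.1%) and 5846 lower (34.8%). With library totals 3553 were higher and 8732 lower at 4 h. The TMM factors at 4 h were 0.841 to 0.860 with HGF and 1.036 to 1.039 with vehicle. They lay closer together at 1 h, 0.980 to 0.985 with HGF and 1.039 to 1.068 with vehicle. Small log2 fold changes at 4 h, and small differences between the times, therefore depended on the scaling. Of the 357 genes raised at least 2-fold at 1 h, 271 (75.9%) were called higher at 4 h, 17 were called lower and 69 were not called. Of the 185 lowered at least 2-fold, 118 (63.8%) were called lower at 4 h and 1 higher. The difference between the times was called for 8935 genes (53.2%), and it ran towards a smaller or opposite effect at 4 h for 140 of the 357 (39.2%) and 41 of the 185 (22.2%). The effect was larger at 4 h for 79 of the 357 and 16 of the 185. Over all 2317 raised genes it was larger at 4 h for 1173 and smaller or opposite for 558, with a median log2 fold change of 0.70 at 4 h and 0.36 at 1 h. Over all 1202 lowered genes it was larger for 382 and smaller or opposite for 315. Genes picked for a large value at 1 h are likely to be less extreme in any second measurement, so these shares are a description.

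EGR2 fell back, with 1.33 ± 0.325 CPM with HGF and 1.14 ± 0.0869 CPM with vehicle at 4 h, a log2 fold change of 0.23 ± 0.19. EGR1 likewise stood at 0.07 ± 0.09. AKAP12 went further, with 1077 ± 87.4 CPM with HGF and 11.96 ± 1.46 CPM with vehicle at 4 h (6.50 ± 0.15), and F3 stood at 2.92 ± 0.05. FOSL1 stood at 4.71 ± 0.09 at 4 h and SERPINB2 at 4.07 ± 0.06, beside 3.58 and 2.15 at 1 h. Some genes changed sign between the times. BTG2 stood at -1.17 ± 0.05 and ELF3 at -2.42 ± 0.09 at 4 h, and HAS2 and KLF5, lowered at 1 h, stood at 2.27 ± 0.05 and 0.39 ± 0.07. TXNIP and FBXO32, moderately lowered at 1 h, reached -4.08 ± 0.09 and -4.37 ± 0.09. Of the 159 ZNF genes lowered at 1 h, 113 (71.1%) were also lower and 9 higher at 4 h. Over all 1202 genes lowered at 1 h the share also lower at 4 h was similar, 795 (66.1%). Whatever their call at 1 h, 51.9% of all ZNF genes and 34.8% of all genes were lower at 4 h.

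**Figure D5:**
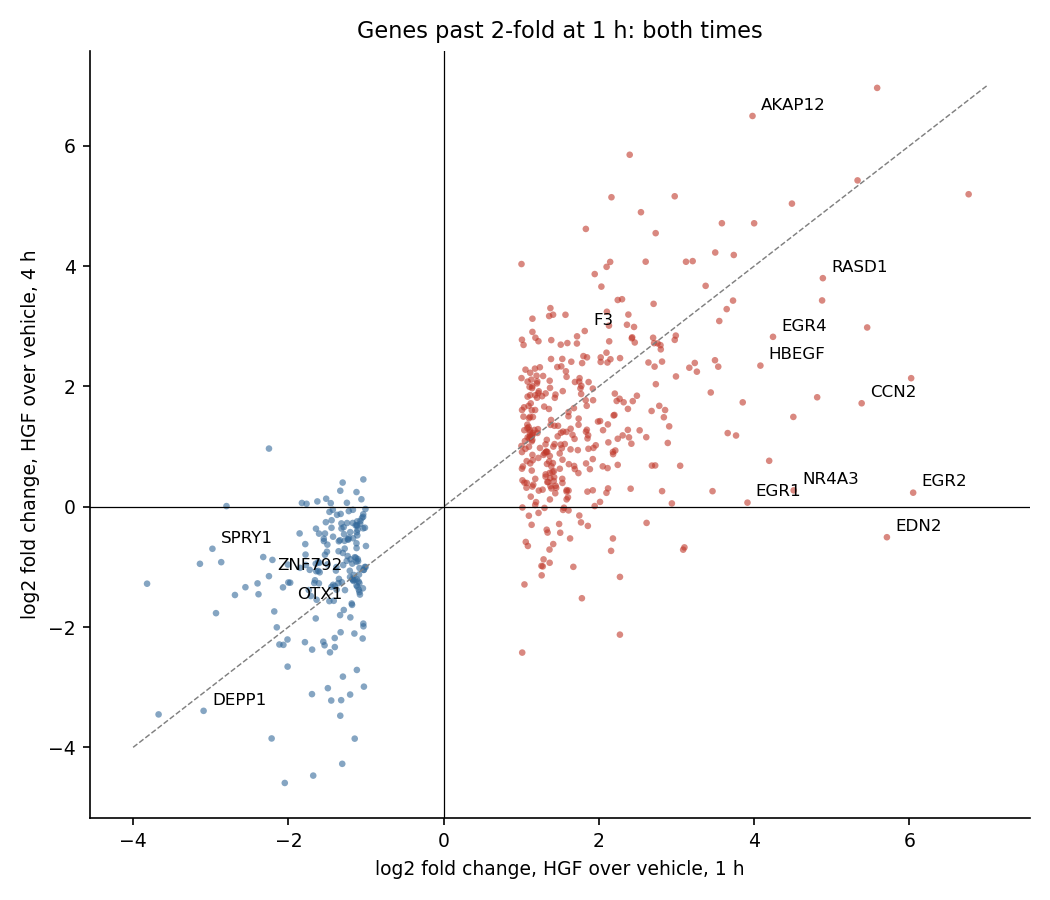
Log2 fold change of HGF over vehicle at 1 h (horizontal axis) and 4 h (vertical axis) for the 357 genes raised (red) and 185 lowered (blue) at least 2-fold at 1 h. The dashed line marks equal values. EGR2 and EDN2 lie near 0 at 4 h, and AKAP12 lies above the line.

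MSP at 100 ng/ml was set against the same vehicle libraries, so its values share their error and stand here side by side only. Over the 12 largest HGF rises the log2 fold changes with MSP ran from 0.37 to 1.59, beside 3.98 to 6.05 with HGF. EGR2 stood at 1.5 with MSP, CCN2 at 1.31 and AKAP12 at 0.37. Over the 12 largest falls they ran from -0.60 to -0.08 with MSP, beside -3.09 to -1.60 with HGF. The ligands were given at different doses, and no comparison is made between them.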

How the data were processed

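Whole-number gene counts were used as the authors deposited them, with 58395 genes in 18 libraries, from KAPA mRNA HyperPrep libraries per the labels. Per the submitters' processing notes, STAR and featureCounts (Subread) were used. Genome build, annotation and strand setting were not given in the sources used here.

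The low-count filter was filterByExpr (minimum count 10, minimum total 15), and the genes it removed held up to 0.0573% of any library. With TMM scaling, edgeR 4.0.16 (R 4.3.3, robust quasi-likelihood test) fitted 1 mean for each group to all 18 libraries. The residual df was 12 and the biological coefficient of variation 5.23%. Benjamini-Hochberg adjustment ran over the 16794 genes, with a threshold of 0.05. Replicate pairs differed by more than counting noise, with a chi-square of 3.73 to 5.77 per degree of freedom.

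Named genes with a symbol were called, averaged at least 1 CPM and had no overlap between groups: the 12 largest rises and falls and the 10 largest CPM gains and losses. Up to 4 called members of each list and MET, MST1R, HGF, MST1, SMAD4 and CDKN2A were added. Other list members are examples chosen after their values were seen. The lists were chosen with earlier results of these data known. Alternatives were other scalings, DESeq2 1.42.0, other filters, the 2 groups alone, a fit that was not robust, a replicate block and each library left out. Of the IDs, 57754 matched the gene name table given and 58275 matched GENCODE 29. Some genes are not reported here.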

Additional observations from a re-analysis of the deposited data

Results flagged for a closer look

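For 30 of the 43 genes named by the size of their change, the HGF effect differed between 4 h and 1 h in a test of the difference itself (edgeR's quasi-likelihood test of the interaction, adjusted over all genes). The same difference was called for 53.2% of all genes tested, and these genes were chosen for a large change at 1 h. Values are the log2 fold change at 4 h minus that at 1 h, from separate HGF and vehicle libraries at each time. Small differences depend on the scaling, as given above for 4 h.

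Most of the steep rises were smaller or gone at 4 h. The vehicle level of several of these genes was itself lower at 4 h than at 1 h. It averaged 11.5 CPM at 1 h and 2.76 CPM at 4 h for EGR3, 42.5 and 17.2 CPM for FOSB, 19.5 and 8.24 CPM for NR4A1 and 5.62 and 1.89 CPM for CCN2. JUNB changed less (170 and 163 CPM). EDN2, at 0.0589 and 0.0705 CPM, was near the limit of 3 counts at both times, so its vehicle levels cannot be ranked. The vehicle groups were not tested against each other. The difference was -5.82 for EGR2, -3.89 for EGR3, -3.85 for EGR1 and -1.42 for EGR4. NR4A1 differed by -2.99, NR4A3 by -4.24, FOSB by -3.01 and JUNB by -2.0. The secreted factors gave -6.22 for EDN2 (SE 1.16), -3.67 for CCN2, -1.57 for CCN1 and -1.73 for HBEGF. The size of the EDN2 value is uncertain, since at 4 h it rested on 0.0468 CPM with HGF and 0.0705 CPM with vehicle. The signalling genes gave -1.09 for RASD1, -1.45 for DUSP2, -0.85 for DUSP5 and -0.68 for EPHA2.

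Rises that were larger at 4 h were those of AKAP12 (2.52), F3 (1.10), ACTG1 (0.62) and ACTB (0.60). The actins, F3 and AKAP12 were called higher at both times.

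Among falls, SPRY1 differed by 2.28, ZNF555 by 1.41, ZKSCAN4 by 1.32 and ZNF792 by 1.10. Smaller differences were 0.74 for OTX1, 0.69 for PPP1R3C, 0.57 for ZNF230 and 0.14 for COL17A1. KLF5 differed by 1.29 and was above vehicle at 4 h. TXNIP went the other way, by -3.63.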

How the results depend on the processing

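Over the alternatives, 2667 of 2711 values of 181 named genes kept their direction and their side of the threshold, and 107 of 113 counts stayed within 1.5 times. Scaling by library totals gave 1523 higher and 3590 lower genes at 1 h, and 3553 higher and 8732 lower at 4 h. With upper-quartile factors 1530 were higher and 3554 lower at 1 h. These scalings moved the median of all genes by -0.11 and -0.10, and they turned the log2 fold change of MET round, to -0.042 with library totals and -0.040 with upper-quartile factors. A minimum count of 50, which tests fewer genes, left 81 falls of at least 2-fold. MST1 stood at 0.18, not called, and at -0.24 to 0.58 with 1 library left out. The calls of SNAI1, STAT3, SPINT2 and ISG15 were lost under several alternatives.

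Leaving out 1 library at a time gave 1961 to 2088 higher and 943 to 1056 lower genes at 1 h, 343 to 372 and 141 to 204 at 2-fold, and 2146 to 2295 called alike at both times. With DESeq2 2234 genes were higher and 1262 lower. Same-numbered HGF and vehicle libraries correlated by 0.055, 0.043 and 0.081, and differently numbered ones by -0.066 to 0.0038. Each correlated best with its own number, weakly, and these values do not settle whether the numbers pair the libraries. The main fit used no block. With the replicate block 2403 genes were higher and 1294 lower. The interaction was not fitted with DESeq2 or with only the 2 groups.

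Depth limited the low genes: a count of 0 allows up to 0.0941 CPM of the smallest of the 6 libraries, and 3757 genes tested were under 1 CPM with vehicle.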
